A study of Rattus norvegicus with 47 samples.

Results

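Medial prefrontal cortex from isolation-reared Wistar rats was compared with that from socially reared Wistar rats at postnatal day 30 (P30), in early adolescence. The members are the arrays whose titles name isolation rearing at P30 (Iso) or social rearing at P30 (Soc), 12 of the 47 arrays of the series, 6 in each group. Arrays 3 and 4 of the Iso group lay closer together than any other arrays of the P30 groups and were averaged, so 11 samples were compared, 5 Iso and 6 Soc, and Iso sample 3 below is that mean. The remaining arrays came from Iso and Soc rats at P40, P60 and P80 and served here to estimate the spread and to ask whether a difference at P30 was larger or smaller than at the later ages. All groups shared strain, tissue and tissue processing: the region was dissected and frozen at once, and total RNA was hybridised to Affymetrix rat arrays with 1 colour. How the rats were handled before the tissue was taken was not compared between the groups. The labels name no drug or genetic change, and give neither sex nor the age at which isolation began. Whether each sample is its own animal is not stated either, and the p-values refer to the spread among the arrays as given, part of which could be technical.

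Neurons that fire strongly switch on immediate early genes through calcium entry, the MAP kinase cascade and the transcription factors CREB and SRF, and the proteins made include further transcription factors such as Fos and Egr1 and synaptic proteins such as Arc. In cortex the level of these transcripts follows recent activity, including handling and exploration shortly before the tissue is taken. The medial prefrontal cortex takes part in social and executive behaviour and its circuits, interneurons and myelin are still maturing in adolescence. In bulk tissue, fewer cells of a type and less RNA per cell cannot be told apart.

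The root mean square distance between samples, in log2 signal over the probe sets kept, was 0.116 for Iso arrays 3 and 4, against 0.225 to 0.263 for the other Iso pairs, 0.205 to 0.241 for Soc pairs and 0.244 to 0.313 for pairs of 1 Iso and 1 Soc array. RNA quality controls differed with rearing. The ratio of 3' to 5' signal of Gapdh, which rises with RNA degradation, was 1.34 ± 0.064 in Iso samples (SD, n = 5) and 1.52 ± 0.042 in Soc samples (SD, n = 6; exact two-sided permutation p = 0.0021645, the smallest this design allows, adjusted p = 0.004329 over 4 measures). The beta-actin ratio was also lower in Iso (2.44 ± 0.14 against 3.50 ± 0.57, exact p = 0.004329, adjusted p = 0.00577), whereas the hexokinase ratio had 3.13 ± 0.46 in Iso and 2.98 ± 0.25 in Soc (exact p = 0.511). The median linear signal of an array was higher in Iso, at 78.0 ± 1.32 against 75.5 ± 0.29 (exact p = 0.0021645, adjusted p = 0.004329). Of the marker genes of cortical layers, 10 of 14 upper-layer and 16 of 19 deep-layer genes in the table passed the signal filter, as did 12 of 18 markers of striatum and other neighbouring regions.

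The largest falls in Iso at P30 were in transthyretin, Ttr, and in genes induced by neuronal activity, and the largest rises in Anp32a and Vdac1. Many synaptic vesicle genes fell by smaller amounts and some myelin genes rose. Of 12149 probe sets tested with limma, 2418 passed at a Benjamini-Hochberg adjusted p under 0.05 (19.9%), 925 higher in Iso (7.61%) and 1493 lower in Iso (12.3%). Most differences were small: 569 of the higher and 619 of the lower probe sets differed by over 0.25 log2, 66 and 70 by over 0.5, and 4 and 4 by over 1. In 1282 probe sets (10.6%) the samples of the groups did not overlap at all, 363 of them higher and 919 lower in Iso, and of the genes 798 (10.1%) were of this kind. With each array centred on its median signal the split was 522 higher and 2259 lower. With the Gapdh ratio as a covariate, 1589 probe sets passed, 541 of them higher. Taking 1 probe set per gene, the brightest, 602 of 7898 genes were higher (7.62%) and 925 lower (11.7%), with a median difference over all genes of 0.0046 log2.

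The direction of the differences moved with signal. Among the 1580 genes of lowest signal (5.72 to 6.44 log2), 7.15% were higher and 2.41% lower in Iso, with a median difference of 0.069. Among the 1580 genes of highest signal (8.77 to 12.1 log2), 5.44% were higher and 31.1% lower, with a median of -0.069. After quantile normalization, which gives all arrays the same distribution of signals, these medians were 0.014 and 0.0014. The median signal of 9 gene lists lay in this highest range, and their shares of lowered genes stand against this 31.1%: 69.7% for synaptic vesicle genes, 53.8% for GABA genes, 50% each for glycolysis and interneuron markers, 44.4% for astrocytes, 37.8% for microtubules, 31.8% for immature neurons, 28.6% for calcium kinases and 27.5% for actin regulators.

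**Figure D1:**
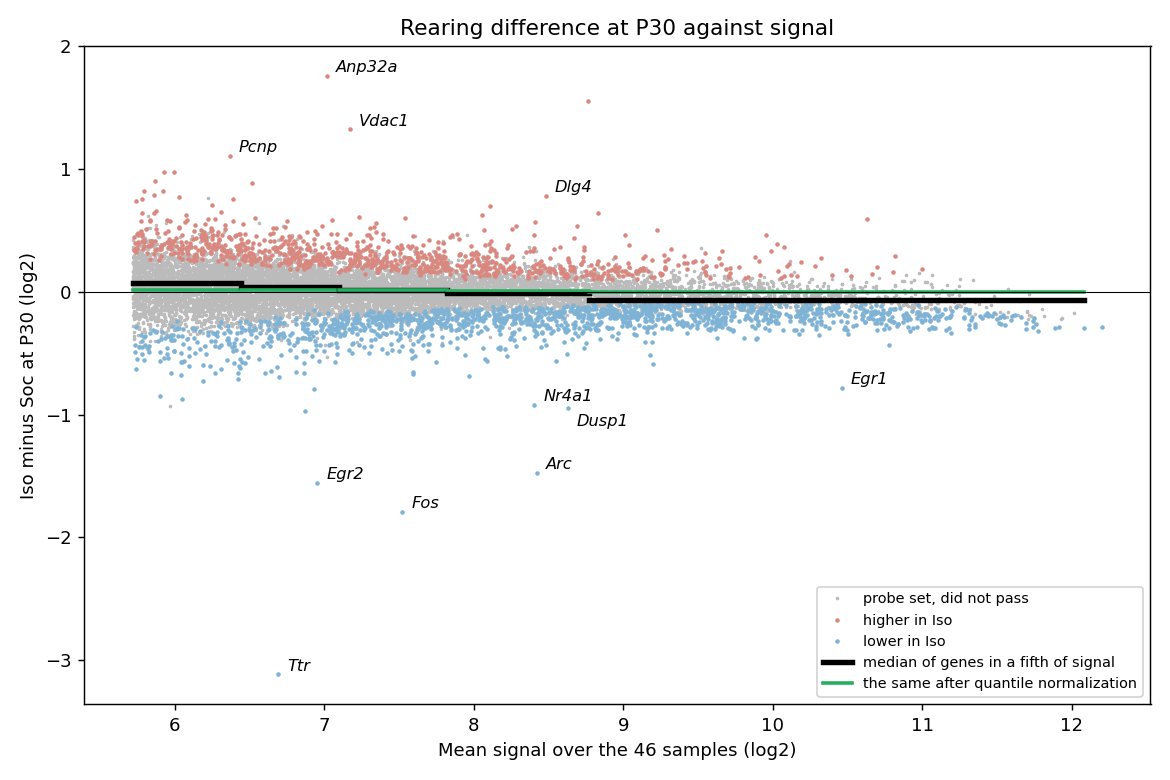
Difference Iso minus Soc at P30 (log2, vertical axis) against mean signal over the 46 samples of the fit (log2, horizontal axis), 1 point per probe set, red where higher and blue where lower in Iso at an adjusted p under 0.05. Black bars, the median over genes in 5 equal groups of signal, go down with signal to -0.069 in the brightest group, green bars show the same after quantile normalization, and Ttr, Fos, Egr2 and Arc stand far below the bulk.

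Immediate early transcription factors were lower in Iso as a group. Of 14 members tested, 10 fell, none rose and 4 did not pass, with a median of -0.45 log2 against 0.0046 over all genes tested, and after quantile normalization the median was -0.48 with the count again 10. With all 47 arrays counted apart 11 fell, and without Iso sample 3, the averaged arrays, 9 did. Fos, the AP-1 subunit most used as a marker of recently active neurons, had signals of 6.16, 5.97, 6.50, 6.05 and 6.28 log2 in Iso samples, against 7.82 to 8.17 with a median of 7.99 log2 in Soc samples. Every Iso sample lay more than a whole log2 unit below every Soc sample, and the difference was -1.79 ± 0.096 (SE), 3.46-fold lower in Iso (limma adjusted p = 9.79e-20). Egr2, a zinc finger transcription factor, had 5.84, 6.19, 5.91, 6.07 and 5.77 log2 in Iso and 7.40 to 7.62 with a median of 7.51 log2 in Soc, a difference of -1.55 ± 0.072 (adjusted p = 2.08e-22). The nuclear receptor Nr4a1 had 7.91, 7.95, 8.02, 8.05 and 7.98 log2 in Iso and 8.77 to 9.08 with a median of 8.88 log2 in Soc (-0.92 ± 0.042, adjusted p = 9.71e-23). The groups did not overlap for either gene.

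Egr1, the brightest of the group, had 10.06, 9.89, 10.09, 9.92 and 9.94 log2 in Iso samples, against 10.70 to 10.81 with a median of 10.77 log2 in Soc samples. Its difference of -0.78 ± 0.033 (adjusted p = 1.04e-23) is small in fold, 1.72-fold lower in Iso, yet wide beside the SD of 0.086 in Iso and 0.044 in Soc. Klf10, a zinc finger factor induced early by growth signals, fell by 0.69 (adjusted p = 1.73e-10) and Egr4 fell by 0.65 (adjusted p = 0.000115), both with no overlap of the groups. Nr4a3, Ier5 and Jund fell by 0.43, 0.36 and 0.18. Junb, with 6.0, 6.17, 5.81, 5.41 and 5.95 log2 in Iso and 5.82 to 6.81 with a median of 6.33 log2 in Soc, overlapped between groups (-0.46, adjusted p = 0.0466), and its adjusted p lay between 0.0527 and 0.171 when any of 9 of the 11 samples was left out in turn.
The members that did not pass were Klf4 (-0.33, adjusted p = 0.0517), Jun (0.02), Crem (0.01) and Klf6 (0.09). Fosb, Egr3, Nr4a2 and Ier2 were in the table but below the signal filter.

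Activity-induced effector genes, which act at the synapse or on signalling, showed the same direction. Of 13 tested, 9 fell, none rose and 4 did not pass (median -0.20, and -0.16 with 8 lower after quantile normalization). Arc, which removes AMPA receptors from synapses, had 7.59, 7.61, 7.46, 7.67 and 7.57 log2 in Iso samples, against 8.94 to 9.17 with a median of 9.05 log2 in Soc samples (-1.48 ± 0.040, 2.78-fold lower in Iso, adjusted p = 1e-31). Within both groups the SD was 0.077, so the gap between the groups was far wider than either. Dusp1, a phosphatase that switches off MAP kinases, had 7.83, 8.12, 8.17, 8.06 and 7.84 log2 in Iso and 8.90 to 9.02 with a median of 8.94 log2 in Soc (-0.95 ± 0.072, adjusted p = 3.09e-14). Its relative Dusp6, which acts on ERK, fell by 0.58 on its brightest probe set and had -0.05 on the others, and Ptgs2, the inducible cyclooxygenase of excitatory neurons, fell by 0.57. Smaller falls were seen in Rgs2 (-0.27) and Rgs4 (-0.25), regulators of G protein signalling, in the kinase Plk2 (-0.20), in secretogranin Scg2 (-0.18) and in the GTPase Rheb (-0.15). Vgf, a secreted peptide precursor, had 0.06, Pim3 -0.18 and Inhba -0.07, and none of them passed. Bdnf, the neurotrophin, lay below the filter.

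Homer1, a postsynaptic scaffold with a short form induced by activity, shows how much the probe set matters. Its brightest probe set did not pass, at -0.06 (adjusted p = 0.4), and it is this one that counts in the list. Other probe sets of Homer1 fell by 0.97 ± 0.083 (6.33, 6.02, 6.51, 6.21 and 6.30 log2 in Iso samples, 7.14 to 7.38 with a median of 7.23 log2 in Soc samples, adjusted p = 2.1e-12) and by 0.59 ± 0.033 (adjusted p = 4.08e-19), and a further one did not pass (-0.14, adjusted p = 0.364). Which transcript each probe set reads was not analysed here.

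**Figure D2:**
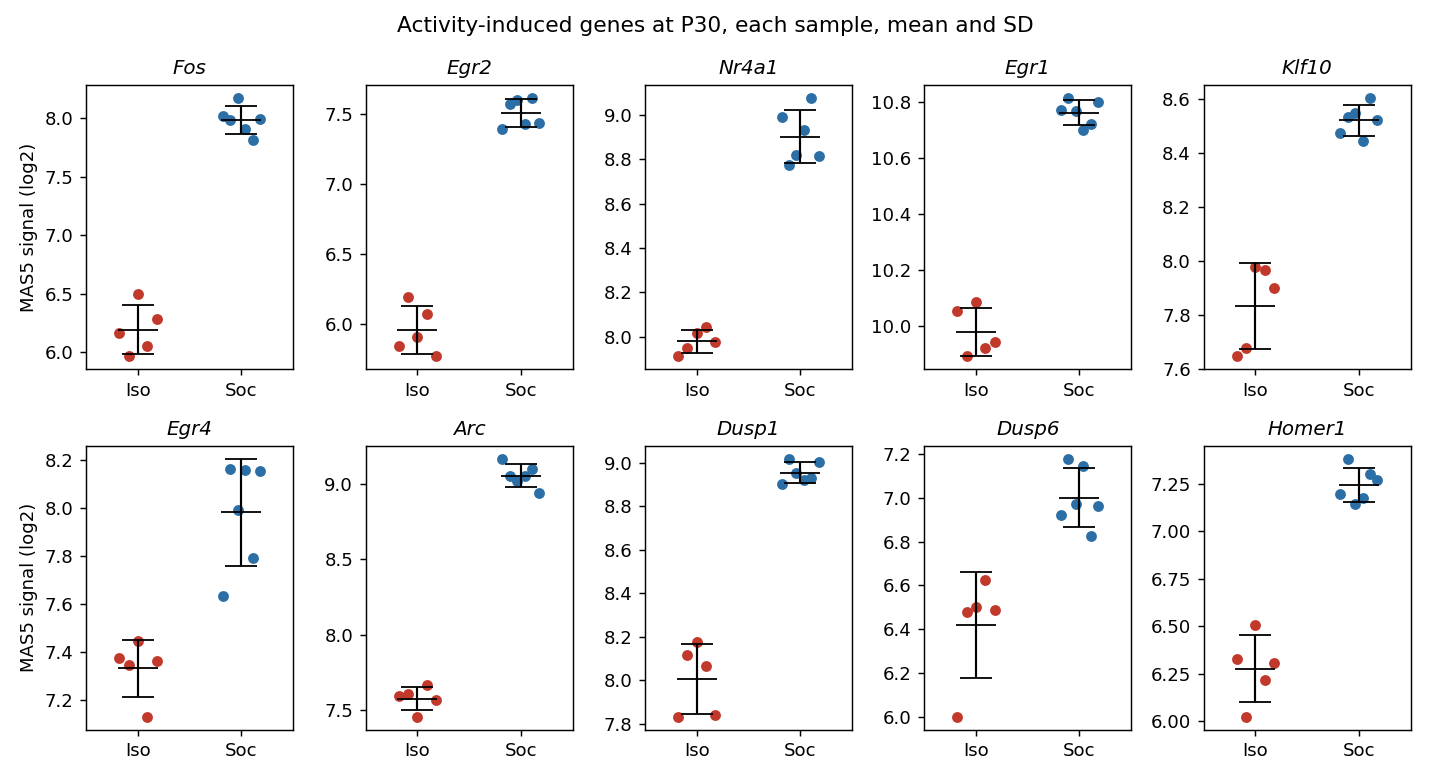
Signal (log2, vertical axis) of 10 activity-induced genes in each Iso (red, n = 5) and Soc (blue, n = 6) sample at P30, with mean and SD, each gene on its own scale that does not start at 0. Homer1 is shown by the probe set of largest difference. In each of these 10 genes all Iso samples lie below all Soc samples.

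Most kinases and receptors upstream of these genes did not pass, as holds for genes at large, of which 19.3% passed. In the list of MAP kinases and their feedback regulators 2 of 16 genes fell and 1 rose: Mapk9, a stress-activated kinase, fell by 0.38, Map2k2 fell by 0.20 and the phosphatase Dusp7 rose by 0.24. In the neurotrophin list 2 of 7 fell, the receptor Ntrk2 by 0.10 and the sorting receptor Sort1 by 0.19.

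Promoters of the activity genes are shown because the genes moved together and because CREB and SRF bind known short motifs. Of the 19 activity genes that fell in both lists, 15 had a promoter in RefSeq (GRCr8), taken here as the 250 bases before the annotated start. Those of the genes among the 25 largest falls are printed 5' to 3', and capitals mark the core of the cAMP response element, TGACG on either strand, and the CArG box bound by SRF, searched by name. Fos, Arc and Klf10 are named only.
Egr2 (chr20:21054442-21054691, minus strand): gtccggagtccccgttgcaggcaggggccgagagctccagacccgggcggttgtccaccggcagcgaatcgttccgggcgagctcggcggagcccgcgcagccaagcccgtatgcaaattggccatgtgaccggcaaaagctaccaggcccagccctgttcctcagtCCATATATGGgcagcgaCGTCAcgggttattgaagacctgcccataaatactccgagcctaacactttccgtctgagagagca
Dusp1 (chr10:17184603-17184852, plus strand): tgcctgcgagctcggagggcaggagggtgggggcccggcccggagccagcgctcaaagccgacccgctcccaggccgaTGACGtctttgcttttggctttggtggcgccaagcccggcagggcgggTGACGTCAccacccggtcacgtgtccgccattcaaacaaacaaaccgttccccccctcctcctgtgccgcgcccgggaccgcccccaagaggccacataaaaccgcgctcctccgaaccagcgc
Nr4a1 (chr7:134259888-134260137, plus strand): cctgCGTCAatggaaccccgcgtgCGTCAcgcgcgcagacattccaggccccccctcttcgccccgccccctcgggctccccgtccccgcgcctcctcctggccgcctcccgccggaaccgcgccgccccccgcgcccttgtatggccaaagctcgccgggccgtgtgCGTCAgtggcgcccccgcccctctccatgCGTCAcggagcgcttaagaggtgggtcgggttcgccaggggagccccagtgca
Egr1 (chr18:26736828-26737077, plus strand): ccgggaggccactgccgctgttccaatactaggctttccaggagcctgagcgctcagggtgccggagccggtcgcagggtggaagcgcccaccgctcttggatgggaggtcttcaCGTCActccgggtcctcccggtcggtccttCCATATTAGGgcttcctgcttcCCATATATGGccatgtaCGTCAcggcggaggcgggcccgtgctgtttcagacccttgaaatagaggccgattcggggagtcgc
Egr4 (chr4:119607818-119608067, minus strand): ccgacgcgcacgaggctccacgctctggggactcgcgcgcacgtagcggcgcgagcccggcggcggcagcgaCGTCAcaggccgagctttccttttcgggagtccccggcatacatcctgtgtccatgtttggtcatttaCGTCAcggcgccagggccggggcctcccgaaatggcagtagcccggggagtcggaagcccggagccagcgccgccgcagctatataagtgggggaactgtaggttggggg
Dusp6 (chr7:35979354-35979603, plus strand): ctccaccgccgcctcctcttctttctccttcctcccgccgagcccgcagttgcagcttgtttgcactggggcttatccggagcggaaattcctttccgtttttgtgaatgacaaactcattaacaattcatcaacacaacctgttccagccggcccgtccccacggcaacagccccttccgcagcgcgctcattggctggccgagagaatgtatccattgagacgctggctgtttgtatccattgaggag

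The TGACG core was found in 12 of the 15 promoters (80%), in 30.2% of the 6643 promoters of genes tested and in 18.2% of all 33469 promoters of the table. The full palindrome TGACGTCA, in which 2 cores overlap, was found in 4 of the 15, those of Dusp1, Jund, Plk2 and Scg2 (26.7%), against 3.28% of tested genes' promoters and 1.59% of all. The CArG box was found in 2, Egr1 and Egr2 (13.3%), against 1.22% of tested genes' promoters and 1.5% of all. In Egr1 its matches span bases -105 to -96 and -83 to -74 before the start, and in Egr2 the match spans the same bases -83 to -74. The EGR site GCGNGGGCG was found in 2 of the 15 (13.3%), against 9.71% and 4.29%, and TATAAA in 3 (20%), against 5.93% and 12.9%. Of the 7 promoters of activity genes that did not pass, 2 held the TGACG core, 1 the palindrome, 1 the CArG box, 1 the EGR site and 4 TATAAA. The genes were listed because activity induces them, which involves CREB and SRF, so these shares may reflect the choice of lists. Whether the motifs have a part in the falls at P30 was not tested. A match is a description of the letters, not a site in use, and no match in Dusp6 says only that these letters are not in its window.

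Ttr had the largest difference of all probe sets. It encodes the carrier of thyroid hormone and retinol in cerebrospinal fluid, made by the epithelium of the choroid plexus. Signals were 6.84, 6.80, 6.68, 6.40 and 6.19 log2 in Iso samples, against 9.55 to 9.79 with a median of 9.69 log2 in Soc samples. No Iso sample came near any Soc sample, and the SD was 0.28 in Iso and 0.087 in Soc (-3.11 ± 0.11, 8.66-fold lower in Iso, adjusted p = 1.44e-27). Of 17 markers of choroid plexus and ependyma among the probe sets, 5 were tested. Beside Ttr, which fell, Enpp2 (-0.05), Igf2 (0.13), Igfbp2 (-0.18) and Rarres2 (-0.04) did not pass. Defining markers of this epithelium had a mean over all samples below the signal filter: Folr1 had 5.31 to 5.75 log2 in Iso and 4.49 to 5.36 log2 in Soc, Kcne2 had 4.49 to 5.47 and 3.98 to 4.98, and Aqp1 had 5.45 to 6.44 and 5.15 to 5.97. The log2 of the summed signal of the 17 genes was 10.53 to 10.65 in Iso and 11.05 to 11.23 in Soc, with no overlap. Without Ttr it was 10.44 to 10.54 in Iso and 10.34 to 10.57 in Soc and overlapped.

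Of 13 tested genes of thyroid hormone and retinoid transport and response, 3 fell and 1 rose. Beside Ttr these were Slco1c1, the thyroxine transporter of brain capillaries (8.04, 8.33, 8.12, 8.23 and 8.10 log2 in Iso samples, 8.49 to 8.68 with a median of 8.62 log2 in Soc samples, -0.44, adjusted p = 1.65e-06), the thyroid-responsive Nrgn (-0.29) and, higher in Iso, the retinal dehydrogenase Aldh1a1 (0.24). The thyroid hormone receptors Thra (-0.10) and Thrb (-0.04) and the responsive Klf9 (-0.08) and Hr (-0.11) did not pass.

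Many presynaptic genes were lower in Iso. In the list of synaptic vesicle proteins and release machinery 23 of 33 genes fell, 1 rose and 9 did not pass, with a median of -0.20. After quantile normalization 15 fell (median -0.12), with the Gapdh ratio as a covariate 14 fell, and without Iso sample 3, 19 fell. The part of RNA quality in these falls was not tested. Syngr3, a vesicle membrane protein, had 9.59, 9.72, 9.70, 9.60 and 9.77 log2 in Iso samples, against 9.99 to 10.15 with a median of 10.05 log2 in Soc samples (-0.38 ± 0.035, adjusted p = 1.42e-11). Slc17a7, the transporter that loads glutamate into vesicles of cortical neurons, had 10.13, 10.16, 10.19, 10.30 and 10.25 log2 in Iso and 10.50 to 10.63 with a median of 10.55 log2 in Soc (-0.35, adjusted p = 3.86e-09). For both genes the groups did not overlap. Falls of similar size were seen in the fusion proteins Vamp2 (-0.30), Snap25 (-0.26) and Stx1a (-0.23), in the calcium sensor Syt1 (-0.31), in Syp (-0.30), Rab3a (-0.35), Syn1 (-0.25), the disassembly ATPase Nsf (-0.31), and in subunits of the proton pump, Atp6v1a (-0.25), Atp6v1b2 (-0.25) and Atp6v0c (-0.23). Cplx2, a clamp of the fusion complex, was the exception, with 6.42, 6.56, 6.40, 6.49 and 6.54 log2 in Iso and 5.42 to 6.36 with a median of 6.04 log2 in Soc (0.51, adjusted p = 0.000414).

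Postsynaptic genes were more mixed. In the scaffold list, which also holds the presynaptic adhesion gene Nrxn2, 5 of 20 genes fell and 2 rose. Dlg3 (-0.38), Shank3 (-0.23), Ppp1r9b (-0.22), Shank2 (-0.18) and Syne1 (-0.14) fell, and Dlg4 (0.78) and Nrxn2 (0.22) rose. Of 14 glutamate receptor genes the obligatory NMDA receptor subunit Grin1 (-0.19), the AMPA receptor subunit Gria3 (-0.18) and the AMPA receptor auxiliary subunit Cacng3 (-0.37) fell and the metabotropic Grm3 rose by 0.31. Gria1 (-0.23) and Gria2 (-0.12) did not pass. In the list of calcium kinases, phosphatases and their partners, which also holds the cAMP-dependent kinase gene Prkacb, 8 of 28 fell and 1 rose (median -0.11). Nrgn, Prkacb and Calm2 fell by 0.29, 0.29 and 0.25, whereas Camk2a, the main kinase of the postsynaptic density, had 9.99, 10.08, 10.14, 10.09 and 10.19 log2 in Iso samples, against 9.56 to 9.71 with a median of 9.63 log2 in Soc samples (0.46 ± 0.039, adjusted p = 1.23e-12). After quantile normalization 5 of this list fell and 2 rose, and with the Gapdh ratio as a covariate none fell and 2 rose.

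Genes of GABA signalling, whose receptors are not confined to inhibitory neurons, and interneuron markers were lower in part. Of 13 genes of GABA synthesis and receptors 7 fell and none rose (median -0.17, and -0.07 with 5 lower after quantile normalization). They included the GABA-synthesising enzyme Gad1 (-0.17), the vesicular GABA transporter Slc32a1 (-0.18) and the receptor subunits Gabbr2 (-0.24), Gabrb2 (-0.23) and Gabra5 (-0.19). The classes of interneurons did not move as a block: Pvalb (-0.02), Sst (-0.13), Vip (0.02) and Reln (0.01) did not pass, Cck (-0.19), Npy (-0.15) and Calb1 (-0.14) fell, and Calb2 rose by 0.25. In all 7 of 14 interneuron markers fell and 2 rose, and after quantile normalization 3 fell and 2 rose.

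Among 19 genes of stress and social neuropeptides 8 fell and 1 rose (median -0.15, and -0.09 with 6 lower and 1 higher after quantile normalization). Crh, the corticotropin-releasing hormone, had 6.37, 6.06, 6.23, 6.32 and 5.94 log2 in Iso samples, against 6.32 to 7.13 with a median of 6.49 log2 in Soc samples. The ranges overlapped (-0.45, adjusted p = 0.013), and without Soc sample 1 the difference was -0.35 (adjusted p = 0.0569). The prohormone convertase Pcsk2 (-0.36), the carboxypeptidase Cpe (-0.23), the binding protein Crhbp (-0.28) and the granin Chgb (-0.16) fell as well, and Cartpt rose by 0.36. Pdyn, the precursor of dynorphins, had 6.0, 6.39, 6.25, 5.73 and 6.72 log2 in Iso and 6.61 to 7.09 with a median of 6.87 log2 in Soc. Its groups overlapped in 1 Iso sample (-0.66, adjusted p = 0.0139), and the adjusted p was 0.0641 without Iso sample 5 and 0.0891 with the Gapdh ratio as a covariate. Of the stress hormone axis, the glucocorticoid receptor Nr3c1 rose by 0.20 (8.13, 8.32, 8.12, 8.11 and 8.17 log2 in Iso samples, 7.91 to 8.06 with a median of 7.98 log2 in Soc samples, adjusted p = 0.0201). In the list of glucocorticoid receptors and responsive genes 3 of 19 fell and 2 rose. The responsive genes gave no common direction: Mt2A rose by 0.46, while Sgk1 fell by 0.21 and Dusp1, also an activity gene, by 0.95. Fkbp5 (0.09), Tsc22d3 (0.04), the receptor Nr3c2 (-0.07) and Ddit4 (-0.07) did not pass. Of 8 tested dopamine, serotonin and noradrenaline genes only Maob passed (-0.10).

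**Figure D3:**
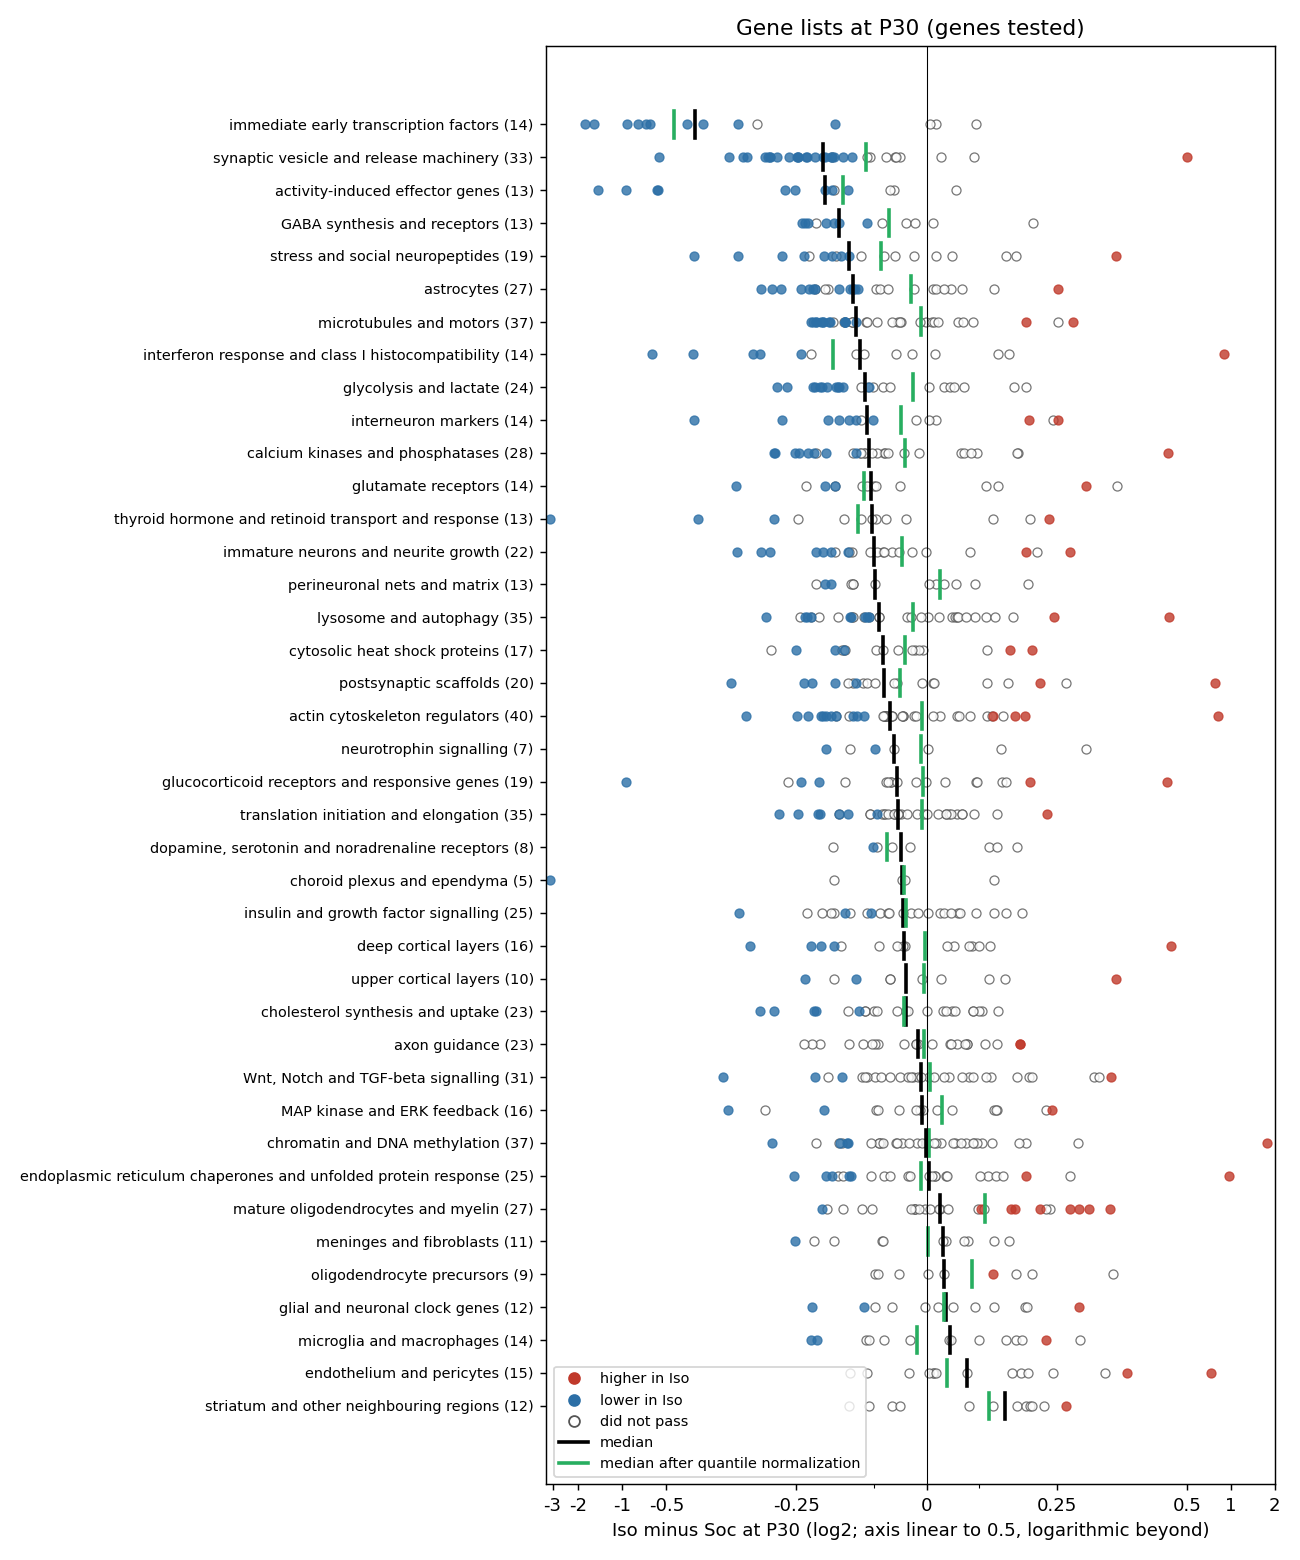
Difference Iso minus Soc at P30 (log2, horizontal axis, linear to 0.5 and logarithmic beyond) of each gene tested in the lists with at least 5 genes tested, ordered by median, the number of genes in brackets. Filled points passed (red higher, blue lower in Iso), black bars are medians and green bars medians after quantile normalization. Immediate early transcription factors lie farthest to the left under both scalings, and in 29 of the 40 lists drawn the median lies closer to 0 after quantile normalization.

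Glial lists went in different directions. Astrocyte genes fell in 12 of 27 and rose in 1 (median -0.14), among them the secreted chaperone Clu (-0.30), the sodium pump subunit Atp1b2 (-0.28), S100b (-0.22), Vim (-0.22), Gfap (-0.17), Aqp4 (-0.14) and the glutamate transporter Slc1a3 (-0.14), with Fabp7 higher by 0.25. These are mostly bright genes, and after quantile normalization 7 fell and 3 rose with a median of -0.03. Myelin and mature oligodendrocyte genes rose in 8 of 27 and fell in 1 (median 0.03, and 0.11 with 11 higher and 1 lower after quantile normalization). With arrays centred on their medians 6 were higher and 4 lower (median -0.02). With the Gapdh ratio as a covariate 5 were higher and 1 lower (median 0.09). Mog, a glycoprotein of the outer myelin surface, had 8.45, 8.33, 8.42, 8.42 and 8.41 log2 in Iso samples, against 8.04 to 8.22 with a median of 8.08 log2 in Soc samples (0.31 ± 0.047, adjusted p = 3.46e-06). All Iso samples lay above all Soc samples. Myrf, the transcription factor that drives myelination, rose by 0.35, Evi2a by 0.29, Lpar1 by 0.28, Ermn by 0.22, Gsn by 0.17 and Mag by 0.16. The abundant myelin genes Mbp (-0.19), Cnp (-0.02), Mobp (-0.02) and Cldn11 (0.03) did not pass, and Aplp1 fell by 0.20. The log2 of the summed signal of the myelin list was 14.09 to 14.15 in Iso and 14.11 to 14.18 in Soc and overlapped.

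Few single markers of other cell types passed. Of 14 microglial genes 2 fell (Ctss by 0.22 and Lyz2 by 0.21) and 1 rose (Fcer1g by 0.23). In endothelium and pericytes 2 of 15 rose, the efflux transporter Abcg2 (0.74, adjusted p = 7.69e-05) and the amino acid transporter subunit Slc7a5 (0.38), and of 11 meningeal genes Fn1 fell by 0.25. Of the 2 blood genes tested, Pf4, platelet factor 4, rose by 0.66 with overlapping groups, while the haemoglobin gene Hbb had 10.75 to 10.85 log2 in Iso and 10.63 to 10.76 log2 in Soc. The summed signals of the microglial, meningeal and blood lists overlapped between the groups. That of the endothelial list was higher in every Iso sample (log2 of the sum 11.14 to 11.20 in Iso, 11.06 to 11.10 in Soc), that of the astrocyte list lower (15.09 to 15.21 in Iso, 15.28 to 15.33 in Soc) and that of the interneuron list lower (12.89 to 12.95 in Iso, 13.0 to 13.07 in Soc). A sum is set mostly by the brightest genes. As a mean of log2 signals the endothelial list overlapped (5.99 to 6.22 in Iso, 5.98 to 6.06 in Soc). So did the interneuron list (7.54 to 7.64 in Iso, 7.43 to 7.60 in Soc). The astrocyte list was lower by this measure too (9.52 to 9.61 in Iso, 9.65 to 9.70 in Soc). The part of cell makeup in the other differences was not tested. In the interferon and class I list 5 of 14 fell and 1 rose. Irf7, a regulator of interferon genes, fell by 0.62 (adjusted p = 5.32e-07). The class I genes RT1-T24-3 and RT1-S3 fell by 0.33 and 0.32 while RT1-T24-4 rose by 0.90, and since these are near-identical copies that a probe set may not separate, their values are uncertain. With the Gapdh ratio as a covariate RT1-T24-4 had 0.47 (adjusted p = 0.284).

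Some genes of glycolysis were lower by small amounts, while the direction of cytoskeletal genes depended on the scaling. Of 24 genes of glycolysis and lactate 12 fell, Aldoa, Eno1, Ldhb and Ldha by 0.29, 0.22, 0.21 and 0.19 among them, and none rose (median -0.12). After quantile normalization the median was -0.03 and 5 fell. Microtubule and motor genes fell in 14 of 37 (median -0.14, and -0.01 with 5 lower and 3 higher after quantile normalization), and Kif5c, a kinesin heavy chain, rose by 0.28. Of 40 actin regulators 11 fell and 4 rose, but 3 fell and 5 rose after quantile normalization, and 4 fell and 2 rose with the Gapdh ratio as a covariate. Among them were Rock2 at -0.35, Rac1 at -0.25 and, higher in Iso, Limk1, the kinase of cofilin, at 0.82 with overlapping groups. In cholesterol synthesis 5 of 23 fell, Sqle by 0.32 and the regulator Srebf2 by 0.22 among them. Translation genes fell in 7 of 35 and rose in 1, with Eef1a2 at -0.28, and after quantile normalization 4 fell and 2 rose. Lysosome and autophagy genes fell in 9 of 35 and rose in 2, with Sqstm1 at -0.31 and Gla at 0.47, and after quantile normalization 5 fell and 4 rose. The deep-layer transcription factors diverged: Fezf2 fell by 0.34 and Bcl11b rose by 0.47, in an overlap of the groups. Of 37 chromatin genes 4 fell and 1 rose, Anp32a. In the Wnt, Notch and TGF-beta list 3 of 31 fell and 1 rose, Sfrp1 (0.36), and in the insulin and growth factor list 3 of 25 fell, led by Irs2 (-0.36).

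The other lists moved in no common direction. Of 25 chaperones and stress response genes of the endoplasmic reticulum 5 fell, among them Hspa5 (-0.19) and Atf4 (-0.25), and Hyou1 and Pdia3 (0.19) rose. Of 17 cytosolic heat shock genes 3 fell and 2 rose, and of 22 genes of immature neurons and neurite growth 7 fell, Cd24 (-0.36) and L1cam (-0.32) among them, and 2 rose, against 4 lower and 2 higher after quantile normalization. Axon guidance genes rose in 2 of 23 and fell in none, perineuronal net genes fell in 2 of 13 and rose in none, and of 12 clock genes Per2 (-0.22) and Hlf (-0.12) fell and Nr1d1 (0.29) rose. Oligodendrocyte precursors had 1 higher of 9 (Fyn, 0.13), acetylcholine and endocannabinoid genes 1 higher (Chrm3, 0.41) and 2 lower of 4, upper layers 1 higher and 2 lower of 10, and the neighbouring regions 1 higher of 12 (Rgs9, 0.27).

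The largest rises were in genes of varied function. The filter used the mean over all samples, and several rises had a Soc mean at P30 below its value of 5.72 log2. Among them were Lrif1 (5.24), Larp6 (5.30), Abcg2 (5.30) and Hyou1 (5.35). Limk1 (5.63 in Iso, 4.81 in Soc) and Pf4 (5.48 in Iso, 4.82 in Soc) lay below it in both P30 groups. The group means of Anp32a, Vdac1 and Dlg4 lay above it. Anp32a, an acidic nuclear protein that binds histones, had 7.71, 7.53, 7.78, 7.77 and 7.90 log2 in Iso samples, against 5.57 to 6.51 with a median of 5.95 log2 in Soc samples (1.76 ± 0.10, 3.38-fold higher in Iso, adjusted p = 1.23e-18). Vdac1, the anion channel of the outer mitochondrial membrane, had 7.96, 7.99, 8.03, 7.95 and 8.0 log2 in Iso and 6.36 to 6.82 with a median of 6.70 log2 in Soc (1.32 ± 0.074, adjusted p = 3.12e-19). Dlg4, the scaffold PSD-95, had 8.74, 8.64, 8.65, 8.70 and 8.65 log2 in Iso and 7.81 to 7.95 with a median of 7.92 log2 in Soc (0.78 ± 0.068, adjusted p = 2.98e-12). In all of these the lowest Iso sample lay well above the highest Soc sample. Hyou1, a chaperone of the endoplasmic reticulum, rose by 0.97 (adjusted p = 0.011) with Soc signals spread from 4.31 to 5.90 log2 around a median of 5.68, and had an adjusted p of 0.0547 with the Gapdh ratio as a covariate. Among the 25 largest rises were also Pcnp (1.11), Sptbn1 (0.89), the RNA-binding Larp6 (0.79), the zinc finger gene Zfp410 (0.77), Harbi1 (0.76), Rdx (0.75), the mannosyltransferase Alg9 (0.69), the endocytic adaptor Pacsin1 (0.65), Qtrt1 (0.64), the ribosomal protein gene Rpl24 (0.64), Armcx6 (0.63), the cholesterol exporter Abca1 (0.61), the kinase Stk25 (0.60), Ints15 (0.60), Zfand1 (0.59), Lrif1 (0.58) and Olfml2b (0.58). Of these, Harbi1, Alg9, Qtrt1, Armcx6 and Ints15 overlapped between the groups.

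Beside the activity genes and Ttr, the 25 largest falls held R3hdm2 (-0.87), the pantothenate kinase Pank3 (-0.85), Armc9 (-0.73, with overlapping groups), the helicase Dhx36 (-0.71), Serp1 of the endoplasmic reticulum membrane (-0.66), the histone methyltransferase subunit Rbbp5 (-0.66), Apc, a brake on Wnt signalling (-0.66), the ribosomal protein gene Rpl7 (-0.65), the transcription factor Klf2 (-0.62), the mitochondrial fusion GTPase Opa1 (-0.61), the synaptotagmin Syt4 (-0.60) and the sterol desaturase Sc5d (-0.58). The groups overlapped in Rbbp5 too, and its other tested probe set had 0.23 (limma adjusted p = 0.276). Klf2 had 5.98, 6.0, 6.07, 6.03 and 6.07 log2 in Iso samples, against 6.49 to 6.98 with a median of 6.62 log2 in Soc samples, with no overlap, whereas its other tested probe set had 0.22 (adjusted p = 0.218). Pank3 had 5.61, 5.83, 6.06, 6.22 and 6.42 log2 in Iso and 6.59 to 7.05 with a median of 6.96 log2 in Soc, while its other tested probe sets had -0.05 (adjusted p = 0.493) and -0.25 (adjusted p = 0.216).

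For several of these genes a second probe set, brighter except in Dlg4, gave a smaller difference or did not pass. Vdac1 was higher by 0.33 (adjusted p = 4.52e-08) on its brighter probe set. Pcnp, Sptbn1 and Dlg4 had -0.08 (adjusted p = 0.0912), -0.08 (adjusted p = 0.208) and 0.12 (adjusted p = 0.13) on their other tested probe sets. Apc, Rpl7 and Syt4 had 0.00, -0.08 and -0.05 on theirs. The brightest probe sets of Sc5d and Rdx had 0.05 and 0.13 and did not pass, and that of Serp1 fell by 0.21. Of 1403 genes with at least 2 probe sets tested, 576 had at least 1 that passed and 130 had at least 2. In 110 of those 130 all that passed went 1 way and in 20 they went both ways. The widest gaps were in Dhx36 (0.37 and -0.71), Sec24b (0.47 and -0.30), Cxxc5 (0.62 and -0.10), Larp4b (0.41 and -0.27), Ttll7 (0.37 and -0.29), Nxph1 (0.20 and -0.37), Dlgap1 (0.28 and -0.29) and Ttl (0.36 and -0.21). For these 8 genes, Dhx36 included, the probe sets give no single direction.

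**Figure D4:**
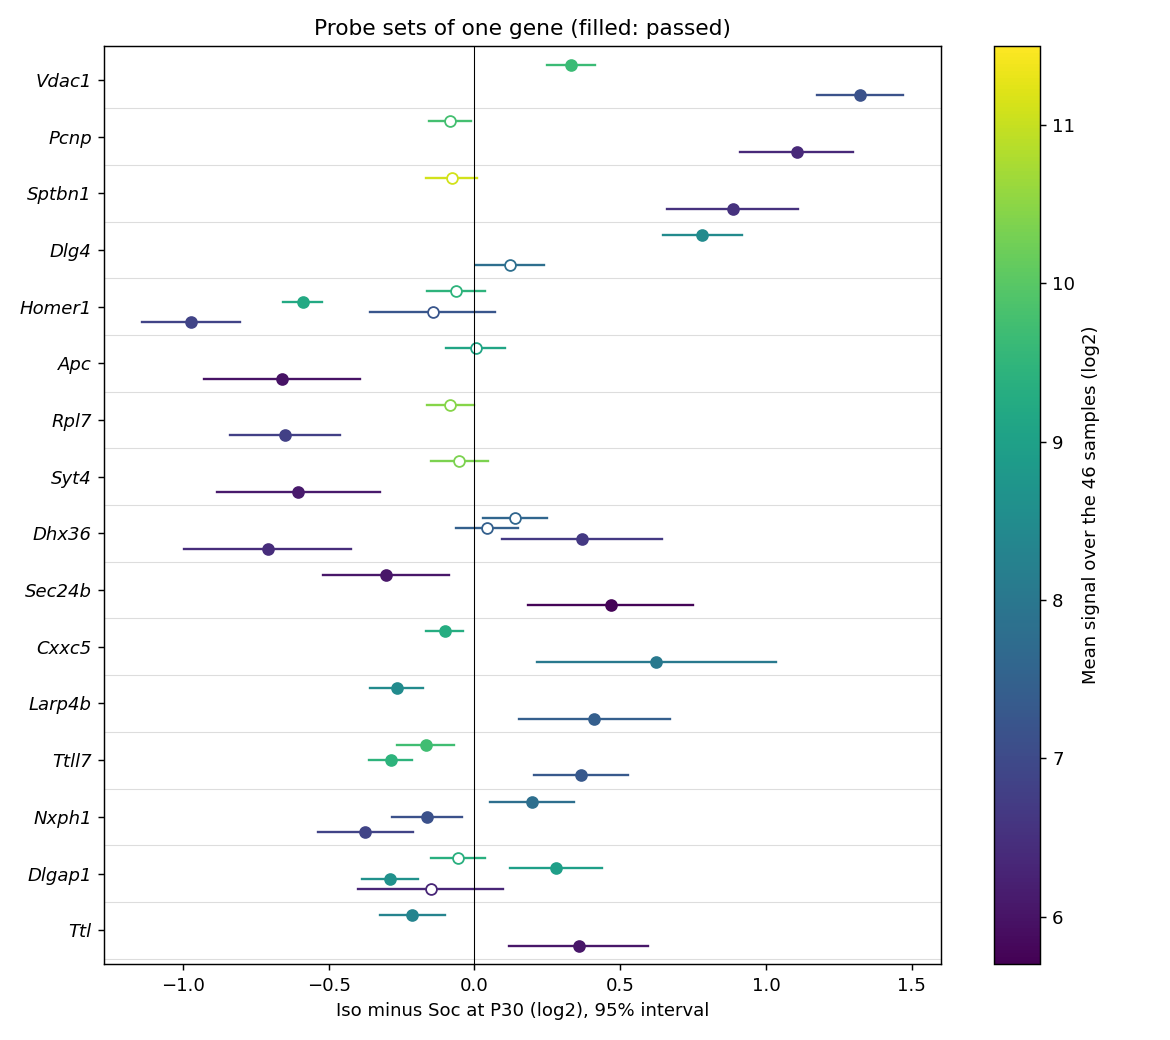
Difference Iso minus Soc at P30 (log2, horizontal axis, with its 95% interval) for every tested probe set of 16 genes, coloured by mean signal, filled where it passed. For Pcnp, Sptbn1, Apc, Rpl7 and Syt4 the dimmer probe set differs and the brighter one sits near 0, and for the lower 8 genes probe sets that passed point both ways.

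Differences at P30 were then set against those at the other ages. The difference Iso minus Soc at P30 departed from the mean difference at P40, P60 and P80 in 1832 of 12149 probe sets (15.1%, limma adjusted p), 717 more positive and 1115 more negative at P30. Of the 2418 probe sets called at P30, 1273 were among them. The P30 difference enters both tests, so a share above 15.1% follows in part from the choice. Among the 925 higher probe sets, 5 were also higher at all 3 later ages. Among the 1493 lower ones, 16 were lower at all 3. The share of all tested probe sets called in the same direction at all 3 later ages was not counted. Whether 5 and 16 are more or fewer than that share would give was therefore not tested. Members of the activity lists made up 9 of those 16: Fos, Egr2, Arc, Nr4a1, Egr1, Dusp6, Ptgs2 and 2 probe sets of Homer1. The others with a name were Klf2, Larp4b, Cds1 and Gna12, and the 4 named among the 5 higher were Rnasek, Polr2j, Nop10 and Dut. Cds1, Gna12 and these 4 were chosen after their values were seen. At single ages, 538 of the 1493 lower probe sets were lower in Iso at P40 (14.6% of all tested were) and 118 higher (13.8% of all). At P60 335 were lower (29.3% of all) and 660 were higher (23.7% of all), and at P80 641 were lower (24.2% of all) and 267 higher (23.5% of all).
Of the 925 higher probe sets, 178, 182 and 350 were higher at P40, P60 and P80, and 113, 315 and 122 were lower.

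The size of the fall in activity genes varied with age. Fos had differences of -1.79, -1.22, -2.01 and -0.99 at P30, P40, P60 and P80, and Arc had -1.48, -1.05, -1.48 and -0.37. In Arc the P30 difference did not depart from that at P60 (0.00, adjusted p = 0.956) but was larger than at P40 (-0.43, adjusted p = 2.15e-07) and P80 (-1.11, adjusted p = 8.96e-21). Egr1 was the one activity gene whose fall at P30 was larger than at each later age with all 3 differences between ages passing, by -0.25, -0.30 and -0.54 log2 (adjusted p from 6.8e-13 to 0.000105). Nr4a1 had -0.92, -0.81, -0.72 and -0.09 from P30 to P80, and its difference between P30 and P40 did not pass (-0.12, adjusted p = 0.175). Dusp1 fell by more at P60 (-1.52) than at P30, by 0.57 log2 (adjusted p = 7.21e-06), and its P30 difference did not depart from the mean of the later ages (-0.20, adjusted p = 0.0888). Egr4, Dusp6 and Ptgs2 did not depart from that mean either (0.01, -0.08 and 0.00), nor did Klf2 (-0.13), which is not in the activity lists.

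In 145 probe sets (1.19%) the P30 difference passed and went beyond that at each of the 3 later ages in its own direction, with each difference between ages passing, 67 of them higher and 78 lower in Iso. Ttr was at their head: at P40 its difference was turned round, at 1.97 log2, with 8.01 ± 0.11 in Iso and 6.05 ± 0.20 in Soc (SD), and at P60 and P80 it was -0.05 and 0.13. In the Soc groups its mean was 9.70 log2 at P30 and 5.73 to 6.05 log2 later, and in the Iso groups it was highest at P40, so the single high Soc group fell at P30 and the single high Iso group at P40. Anp32a had 1.76, -0.04, 0.01 and -0.43 from P30 to P80, and Camk2a 0.46, -0.23, -0.10 and -0.30. Both belong to the 145, as do Dlg4 (0.78, -0.22, 0.42 and -0.23), Vdac1 (1.32, -1.10, 1.02 and -0.14), Pcnp (1.11, -0.52, 0.50 and -0.46) and Sptbn1 (0.89, 0.10, 0.32 and -0.51). These are the values of 1 probe set each. The other tested probe set had 0.33, -0.22, 0.12 and 0.06 for Vdac1, -0.08, 0.01, -0.17 and 0.29 for Pcnp, -0.08, -0.13, -0.10 and 0.14 for Sptbn1, and 0.12, 0.19, -0.35 and 0.22 for Dlg4, so that the signs at later ages differed between probe sets. Among members of the lists, Syngr3 (-0.38, -0.01, 0.03 and -0.16), Grin1 (-0.19, 0.02, 0.13 and 0.05), Gabbr2 (-0.24, -0.03, 0.05 and -0.07) and, in myelin, Mog (0.31, -0.19, -0.09 and -0.21), Lpar1, Ermn and Gsn belonged to the 145 too.

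Some presynaptic genes were lower in Iso at P30 but higher at P60. Slc17a7 had -0.35, -0.45, 0.55 and -0.30 from P30 to P80, Syt1 had -0.31, -0.68, 0.79 and -0.19, and Sh3gl2, an endocytic adaptor, had -0.56, -0.77, 1.16 and -0.19. Among the 12 genes of smallest p in this contrast were likewise, each on one of its probe sets, Syn2 (-0.46, -0.55, 0.85 and -0.01), Vsnl1, a neuronal calcium sensor (-0.38, -0.43, 0.72 and -0.13), Nsf (-0.56, -0.66, 1.06 and 0.17) and Rab3a (-0.17, -0.32, 1.21 and -0.04). Kif5c (0.28, -0.42, 0.00 and -0.72) and the cell adhesion gene Ntm (0.33, -0.27, 0.09 and -0.90) completed the 12 with Ttr, Vdac1, Anp32a, Camk2a, Pcnp and Arc. Other probe sets of these genes could differ: the brightest of Syn2 had -0.11, 0.21, -0.30 and 0.25, the brighter of Vsnl1 had -0.19, -0.13, -0.03 and 0.06, and the dimmer of Kif5c had -0.06, -0.40, 1.01 and -0.23. Of the synaptic vesicle list 20 of 33 genes departed from the mean of the later ages, of the myelin list 15 of 27 and of the immediate early transcription factors 6 of 14, against 14% of all genes tested. The share among genes of like signal was not counted, and the synaptic vesicle list is bright, with a median signal of 10.3 log2.

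**Figure D5:**
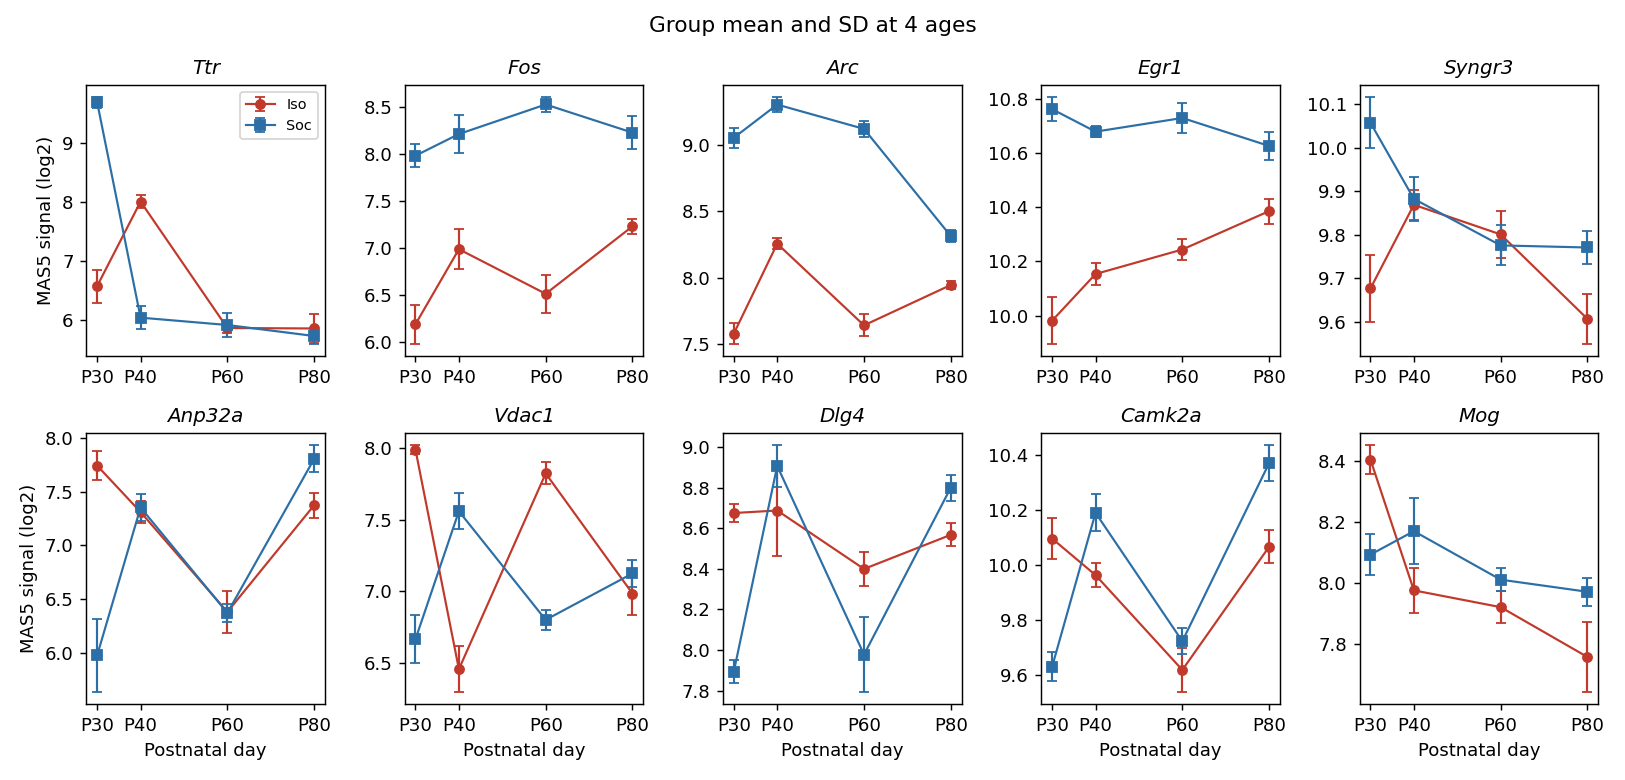
Group mean and SD of signal (log2, vertical axis, own scale per gene, not from 0) in Iso (red) and Soc (blue) rats at P30, P40, P60 and P80 for 10 genes, Mog, Vdac1 and the others by the tested probe set of largest difference at P30. Fos, Arc and Egr1 are lower in Iso at all 4 ages, Ttr is high only in Soc at P30 and Iso at P40, and Vdac1 and Dlg4 are higher in Iso at P30 and P60.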

How the data were processed

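Total RNA from medial prefrontal cortex was labelled with biotin from 7 ug per sample, per the labels' protocols, and hybridised to Affymetrix arrays. The deposited values are log2 signals that the authors computed with MAS5, per the submitters' processing notes; a version, scaling target, batch and date are not given in the sources used here. Trimmed mean signals lay between 157 and 161 on all arrays, so arrays had been scaled before deposit, and no scaling was added. A deposited list of the authors' filter criteria gives counts of probe sets, of which 20304 passed in any pair of groups and 18197 in the P30 pair.

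Of 20249 probe sets that are not controls, 12149 with a mean log2 signal of at least the 40th percentile (5.72) were tested in limma 3.58.1 (R 4.3.3) on 46 samples, with a mean for each of the 8 groups (38 residual degrees of freedom), a variance trend on signal, and two-sided p-values adjusted by Benjamini-Hochberg across all probe sets tested at 0.05. A second contrast set the P30 difference against the mean of the other ages' differences, and the P30 difference was also set against each age. Gene names came from the platform annotation, checked by gene number against RefSeq (GRCr8): 14607 probe sets had 1 symbol, 326 several and 5316 none listed. The 43 gene lists hold 1212 genes, 741 of them tested, each by its brightest probe set. Members, lists and tests were chosen with earlier results of these data known. Named genes are the 25 largest rises and 25 largest falls, the 12 smallest p of the contrast across ages, members of the lists, and the 8 genes with the widest gap between oppositely called probe sets. Array quality was compared by exact permutation tests (scipy 1.17.1). The fit was tested on simulated data. Alternatives were all 47 arrays, other filters, quantile normalization, centring, a floor of 32, P30 samples alone, the Gapdh ratio as a covariate, a replicate block, leaving out each sample, no variance trend, the probe set of smallest p, and, chosen after seeing the data, a separate variance per probe set, the kind of test the authors' criteria name. Figures were drawn with matplotlib 3.10.9. The number of arrays limits the precision.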

Additional observations from a re-analysis of the deposited data

Results flagged for a closer look

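The P30 difference Iso minus Soc departed from the mean difference at P40, P60 and P80 (limma adjusted p under 0.05, the difference itself being tested) in 17 of the 20 genes with the largest rises and falls, against 15.1% of all probe sets. These were picked by the P30 difference, which enters the contrast, so the count is a description. A further 7 genes, Camk2a, Ntm, Syn2, Vsnl1, Kif5c, Rab3a and Nsf, were picked for a small p in this contrast, so their departure was set by the choice. Among genes lower in Iso at P30 the departures were -3.80 log2 for Ttr, -0.86 for Pank3, -0.82 for R3hdm2, -0.75 for Nsf, -0.56 for Syn2, -0.51 for Arc, -0.45 for Rab3a, -0.43 for Vsnl1, -0.38 for Fos, -0.38 for Nr4a1, -0.36 for Egr1 and -0.34 for Egr2. Among genes higher in Iso at P30 they were 1.91 for Anp32a, 1.40 for Vdac1, 1.26 for Pcnp, 1.19 for Hyou1, 0.92 for Sptbn1, 0.92 for Limk1, 0.79 for Dlg4, 0.69 for Ntm, 0.68 for Camk2a, 0.67 for Zfp410, 0.66 for Kif5c and 0.54 for Larp6. A mean over 3 ages can hide opposite signs among them, as it does for Vdac1, Syn2, Nsf and Rab3a, whose values at each age are given above.

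In Vsnl1, Soc sample 2 (10.27 log2) lay apart from the other Soc samples, below all of them. This was the only such sample in 54 groups of values checked, and chance alone flags about 1 in 20.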

How the results depend on the processing

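The count of probe sets called at P30 (2418, 925 higher and 1493 lower in Iso) was within 1.5 times its value with all 47 arrays, no filter, the 60th percentile filter, quantile normalization, a floor, P30 samples alone, no variance trend and a replicate block, and ran from 2102 to 2773 over these settings. Centring each array on its median gave 522 higher and 2259 lower. The Gapdh ratio as a covariate gave 1589, with 541 higher, and a separate variance per probe set gave 519 higher; the cause was not tested. Leaving out 1 sample at a time gave 1881 to 2439 called, 720 to 913 higher, 1161 to 1526 lower, and 1469 to 1863 for the departure from the other ages (1832). Same-numbered samples did not deviate together more than others (correlations of -0.085 to 0.072 over 5 numbers, against -0.121 to 0.070 for other numbers). The labels do not say whether the numbers pair samples, and correlations over 5 numbers are too few to decide it. The replicate block gave 2391 calls, 906 higher and 1485 lower. Of the gene-by-setting values, 711 kept their call and 23 lost it, in Junb, Crh, Pdyn, Hyou1, Limk1 and RT1-T24-4, and none reversed. Of list counts, 1674 were within 1.5 times and 304 were not. A separate variance per probe set also ended the calls of Limk1 (adjusted p = 0.118), Crh (0.0971) and Hyou1 (0.0688).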
